A study of Bos taurus with 12 samples.

Results

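The miR-17-92 cluster and its paralogue miR-106b-25 were followed through 12 small RNA libraries of bovine granulosa cells. The 10 members were chosen by name, 7 mature miRNAs of miR-17-92 (bta-miR-17-5p, bta-miR-17-3p, bta-miR-18a, bta-miR-19a, bta-miR-20a, bta-miR-19b and bta-miR-92a) and 3 of miR-106b-25 (bta-miR-106b, bta-miR-93 and bta-miR-25), out of 755 mature miRNA names in the count tables. Granulosa cells came from subordinate follicles (SF) or dominant follicles (DF) of Simmental heifers that were slaughtered 3 or 7 days into the estrous cycle (day 3 and day 7 below), and each of the 4 groups had 3 biological replicates. All heifers had been synchronized with the prostaglandin analogue cloprostenol and the GnRH analogue buserelin, and different heifers were used on the 2 days. SF and DF of the same day came from the same set of heifers, and the main tests did not pair them. SF and DF were told apart by follicle diameter alone. The diameter limits of both classes were set higher at day 7 than at day 3. A follicle of the same diameter could thus be DF at day 3 and SF at day 7. Comparisons between days and the interaction also carry this change of limits. The cells were sedimented from follicular fluid that had been pooled by follicle size, so a library may hold cells of several follicles. The paper counted only 3 DF follicles at day 7, and more follicles in every other group.

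The miR-17-92 cluster is a single primary transcript that is cut into several hairpins, and it is known for driving the cell cycle and blocking apoptosis in dividing cells. The miR-106b-25 hairpins lie in an intron of MCM7, the gene of a subunit of the helicase that opens DNA for replication. The members fall into families by their seed, the bases that pair with a target. In one family are miR-17-5p, miR-20a, miR-106b and miR-93, which target the cell cycle inhibitor CDKN1A. In another are miR-92a and miR-25, together with miR-92b, miR-32 and miR-363 from elsewhere in the genome. The pair miR-19a and miR-19b forms a family of its own, as does miR-18a. miR-17-3p comes from the opposite arm of the miR-17 hairpin and has a seed of its own. Granulosa cells divide while a follicle grows and stop when it is ovulated or lost.

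In the RefSeq gene table of the ARS-UCD2.0 assembly, the precursor genes MIR17, MIR18A, MIR19A, MIR20A, MIR19B and MIR92A-1 followed each other in this order on 1 chromosome. MIR106B, MIR93 and MIR25 were neighbours on another, and all 3 lay within MCM7. A further set of precursors, MIR363, MIR92A-2, MIR19B-2, MIR20B, MIR18B and MIR106A, lay together on a different chromosome. The mature bta-miR-92a and bta-miR-19b were each listed under 2 precursors, one of which belongs to that further set. The entry with the higher total was kept, which was mir-92a-1 for bta-miR-92a (96734 reads in the 12 libraries, against 82697 for mir-92a-2) and mir-19b-2 for bta-miR-19b (1329 reads, against 1280 for the other entry). Reads of bta-miR-92a and bta-miR-19b could therefore have come from either chromosome. The near-identical pairs bta-miR-17-5p and bta-miR-106a, bta-miR-18a and bta-miR-18b, bta-miR-20a and bta-miR-20b, bta-miR-19a and bta-miR-19b, and bta-miR-92a and bta-miR-92b may share reads, and their split is uncertain.

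The libraries held between 160418 and 405129 reads on known miRNAs, with 1 precursor entry per name, and 3 reads made between 0.000741% and 0.00187% of a library, which covers counting error only. In bulk cells, fewer cells of a type and less RNA per cell cannot be told apart. Normalized counts are reads divided by a size factor for each library. Marker miRNAs of other cells differed between the groups for some lists. The summed normalized count of 4 leukocyte miRNAs was 3110, 8636 and 783 in the 3 libraries of DF at day 7. It was 184 to 705 in SF at day 7 and 108 to 220 at day 3. Of these miRNAs, bta-miR-142-3p and bta-miR-223 had means of only 3.94 and 5.98 in DF at day 7. The sum of 3 erythrocyte miRNAs was 808 to 2322 in DF and 438 to 515 in SF at day 7, and 315 to 1642 at day 3. Of these, bta-miR-144 was at 0 in SF at day 7. The smooth muscle and stroma pair bta-miR-143 and bta-miR-145 summed to 6723 to 14191 in DF and 2869 to 4909 in SF at day 7, and to 2206 to 4893 at day 3. The endothelial pair of bta-miR-126 arms did not separate the groups at day 7, at 130 to 160.2 in DF and 90.9 to 221 in SF. At day 3 this pair was apart, at 103 to 131 in SF and 61.6 to 101 in DF. The gonad miRNA bta-miR-202 with bta-miR-383 summed to 364 to 976 in DF at day 7 and to 2215 to 3676 in the other 9 libraries, and bta-miR-383 was at 0 in DF at day 7. At day 3 the sum of these gonad miRNAs was also apart, at 2418 to 2839 in SF and 3131 to 3676 in DF. SF and DF overlapped at day 3 for the leukocyte, erythrocyte and smooth muscle lists. The part of cell mixture in the values of either day was not tested.

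All 10 members had reads in each of the 12 libraries, so that all passed the detection filter, but their levels differed by orders of magnitude. bta-miR-92a had the most reads, with a mean normalized count of 7710 over the 12 libraries, the 10th highest of all 755 names. bta-miR-25 had a mean of 1443 and was the 29th, and bta-miR-93 had a mean of 424 and was the 58th. The other members of miR-17-92 had means of 104 (bta-miR-19b), 93.5 (bta-miR-17-5p), 65.4 (bta-miR-20a), 17.5 (bta-miR-19a), 10.9 (bta-miR-17-3p) and 6.97 (bta-miR-18a), while bta-miR-106b had 54.5. These are reads of mature miRNAs of similar length, and an order of reads need not be an order of molecules. Between 2 and 14 raw reads lay behind each value of bta-miR-18a, and between 4 and 20 behind each of bta-miR-17-3p.

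**Figure D1:**
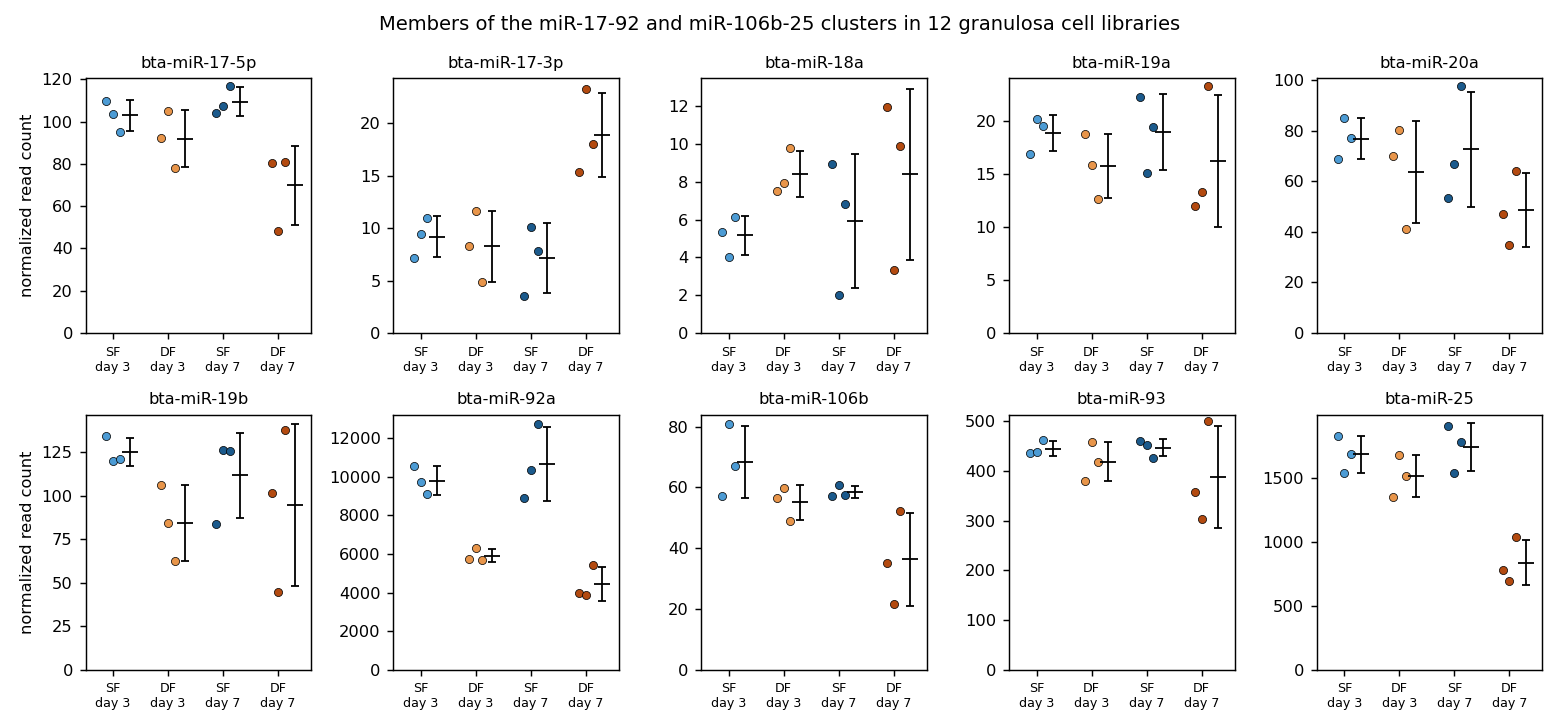
Normalized read count (y axis, linear, from 0) of the 10 cluster members in the 4 groups. Each point is 1 library and the bar beside it is the mean ± SD (n = 3). bta-miR-92a was higher in every SF library than in any DF library, bta-miR-25 was low in DF at day 7 alone (697 to 1033), and bta-miR-17-3p was high there (15.4 to 23.3).

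Of all reads at day 3, miR-17-92 took 3.84% ± 0.32 in SF (SD, n = 3) and 2.52% ± 0.20 in DF. Its share at day 7 was 3.77% ± 0.38 for SF and 1.70% ± 0.24 for DF. The DF libraries lay below the SF libraries on both days. For single libraries the 95% Wilson interval was narrow, as in the shallowest, DF at day 7 replicate 2, where the share was 1.52% (1.46 to 1.58%). This sum was bta-miR-92a for the most part. Without bta-miR-92a, the normalized counts of the cluster summed to 338 ± 7.1 and 272 ± 54.8 in SF and DF at day 3, and to 326 ± 49.0 and 257 ± 83.6 at day 7. miR-106b-25 took 0.831% ± 0.063 and 0.812% ± 0.114 of the reads in SF and DF at day 3, and 0.777% ± 0.105 and 0.456% ± 0.079 at day 7. Here only DF at day 7 stood below the other groups, with a highest library of 0.540% against a lowest of 0.681% elsewhere.

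To see whether the clusters differed between the follicle classes while follicles are being selected, SF was compared with DF at day 3. bta-miR-92a was 1.60 fold higher in SF, bta-miR-19b was 1.43 fold higher, and the remaining members lay between 1.64 fold lower (bta-miR-18a) and 1.19 fold higher (bta-miR-106b). A miRNA was called where its log2 fold change reached 1 in size with p up to 0.05 and an adjusted p up to 0.1, by the quasi-likelihood test of edgeR, adjusted over all miRNAs tested by the Benjamini-Hochberg method. None of the 10 members was called by edgeR, nor by DESeq2 (0 of 10), while 5.67% of the 335 miRNAs tested were. At p under 0.05 there were 2 members, beside 83 of all 335 miRNAs. The same 2 members had an adjusted p up to 0.1, which 16.7% of all miRNAs reached. The libraries of SF and DF did not overlap for 3 members, beside 27.8% of all miRNAs. The median log2 fold change was 0.15 over the members and -0.04 over all miRNAs.

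For bta-miR-92a, the normalized counts at day 3 were 10591, 9738 and 9094 in SF and 5732, 6304 and 5714 in DF. The lowest SF library was well above the highest DF library. The log2 fold change was 0.68 ± 0.11 (SE), with an adjusted p of 0.000102 in edgeR, so the test passed and the size did not reach the fold set for a call. For bta-miR-19b, the counts were 135, 119.8 and 121 in SF and 105.96, 84.4 and 62.5 in DF. These groups also stood apart, by a small margin, and the log2 fold change was 0.52 ± 0.20 with an adjusted p of 0.0986. The libraries of bta-miR-18a did not overlap either, at 4.04 to 6.11 in SF and 7.51 to 9.77 in DF, and its log2 fold change was -0.71 ± 0.53 with an adjusted p of 0.455. The members of miR-106b-25 showed no such separation, with log2 fold changes of 0.25 ± 0.22 (bta-miR-106b), 0.04 ± 0.15 (bta-miR-93) and 0.11 ± 0.13 (bta-miR-25).

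At day 7, when the dominant follicle of the first wave is established, 3 of the 10 members differed between SF and DF. bta-miR-92a was 2.54 fold higher and bta-miR-25 was 2.19 fold higher in SF, while bta-miR-17-3p was 2.47 fold lower. Over all 350 miRNAs tested, 33.4% were called, 15.1% as higher and 18.3% as lower in SF, so the members' count is near the share of all miRNAs. The libraries did not overlap for 5 members, beside 45.7% of all miRNAs. The median log2 fold change was 0.47 over the members and -0.05 over all miRNAs.

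bta-miR-92a had normalized counts of 8923, 10370 and 12746 in SF at day 7 and of 3980, 3886 and 5449 in DF. Each SF library was above each DF library, and the log2 fold change was 1.34 ± 0.21 with an adjusted p of 0.000909 in edgeR. bta-miR-25, which shares the seed of miR-92a, had counts of 1901, 1533 and 1779 in SF and of 778, 697 and 1033 in DF. These groups were again apart, with a log2 fold change of 1.13 ± 0.22 and an adjusted p of 0.00292. The call of bta-miR-25 was lost where libraries were scaled by their size alone (0.99), a scaling that moved the median of all miRNAs by -0.14 in this comparison. Without each of the 6 libraries in turn, the log2 fold change ran from 1.21 to 1.49 for bta-miR-92a and from 1.02 to 1.29 for bta-miR-25.

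bta-miR-17-3p had normalized counts of 3.56, 10.1 and 7.80 in SF and of 15.4, 23.3 and 18 in DF at day 7. All DF libraries were above all SF libraries, from 14 to 20 raw reads in DF and 4 to 10 in SF. The log2 fold change was -1.30 ± 0.48 with an adjusted p of 0.0628 in edgeR. The call was lost without SF replicate 1 (-0.96), SF replicate 3 (-1.37), DF replicate 1 (-1.43), DF replicate 2 (-1.14) or DF replicate 3 (-1.35), with an adjusted p of 0.110 to 0.147, and stood only without SF replicate 2. The other arm of the same hairpin, bta-miR-17-5p, had its higher values in SF, at 104, 107 and 117 in SF and 80.4, 48.2 and 81.0 in DF. Its groups did not overlap, and its log2 fold change of 0.71 ± 0.27 had an adjusted p of 0.0638 and was under the fold set for a call.

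Of the others at day 7, bta-miR-106b was at 57.0 to 60.7 in SF and at 21.6 to 52.2 in DF, without overlap, and its log2 fold change was 0.74 ± 0.33 with an adjusted p of 0.114. It was called only where DF replicate 3 was left out (1.06, adjusted p of 0.0507). The groups overlapped for bta-miR-93, bta-miR-20a, bta-miR-19a, bta-miR-19b and bta-miR-18a, with log2 fold changes of 0.29 ± 0.24, 0.64 ± 0.32, 0.29 ± 0.40, 0.31 ± 0.37 and -0.48 ± 0.62. Their adjusted p lay between 0.166 and 0.589.

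**Figure D2:**
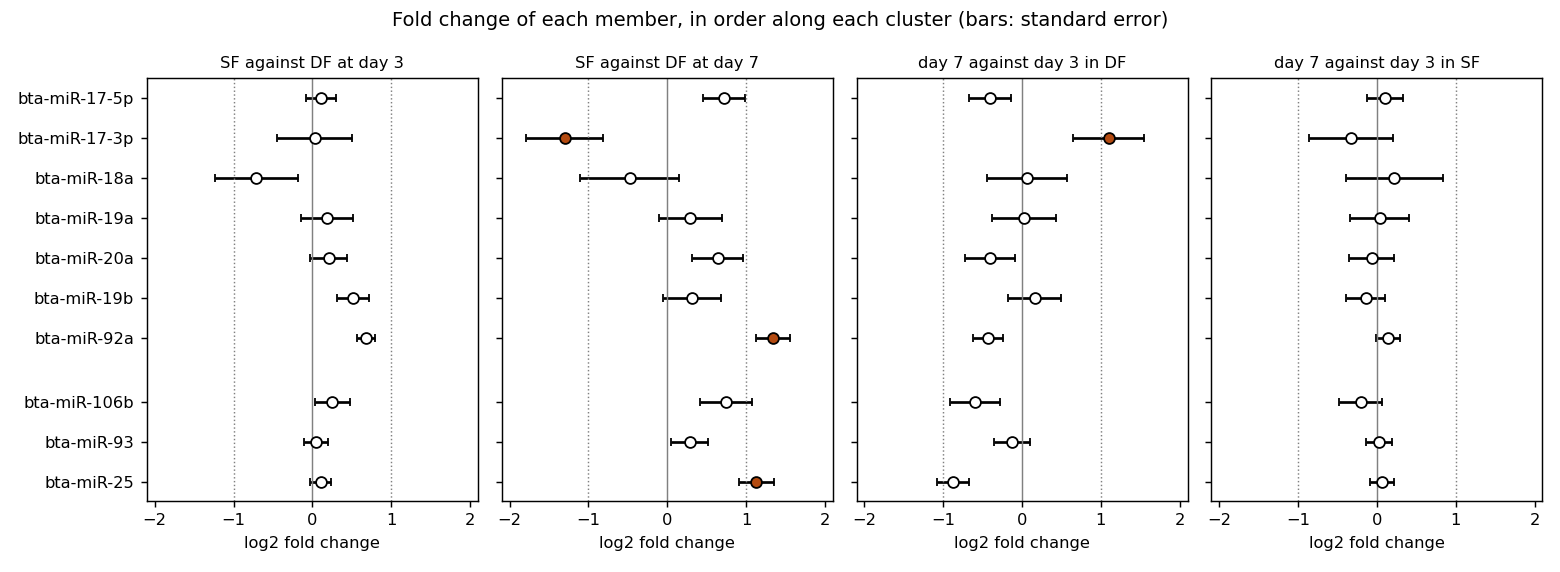
Log2 fold change (x axis) of each member in the 4 comparisons, with miR-17-92 above and miR-106b-25 below, each in its order along the chromosome. Bars are standard errors, dotted lines mark a log2 fold change of 1 in either direction, and filled points were called. At day 7, bta-miR-92a and bta-miR-25, the last members of their clusters, were at 1.34 and 1.13, and bta-miR-17-3p was at -1.30.

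To follow the dominant follicle over time, DF at day 7 was compared with DF at day 3, which uses the same DF libraries of day 7 as the comparison above. One member was called, bta-miR-17-3p, which was 2.14 fold higher at day 7. Of all 360 miRNAs tested, 40.3% were called and 24.4% were called as higher at day 7. An adjusted p up to 0.1 was reached by 3 members and by 47.2% of all miRNAs, and 3 members had libraries without overlap, beside 50% of all miRNAs. The median log2 fold change was -0.27 over the members and 0.05 over all miRNAs.

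bta-miR-17-3p was at 8.27, 11.6 and 4.89 in DF at day 3, below each of the day 7 libraries given above. Its log2 fold change was 1.10 ± 0.45 with an adjusted p of 0.0678 in edgeR, and it was not called by DESeq2 (1.12, adjusted p of 0.106), nor without DF at day 3 replicate 1 (1.05) or replicate 3 (0.82) or DF at day 7 replicate 2 (0.92). bta-miR-25 was at 1352, 1678 and 1514 in DF at day 3, above all day 7 libraries of DF. It was 1.84 fold lower at day 7, a log2 fold change of -0.88 ± 0.21 with an adjusted p of 0.00405, just under the fold set for a call. It passed without DF at day 7 replicate 3 (-1.05) and with scaling by library size alone (-1.03). bta-miR-92a also had no overlap between the days in DF, and its log2 fold change was -0.43 ± 0.19 with an adjusted p of 0.0875. The other 7 members lay between -0.59 ± 0.32 (bta-miR-106b) and 0.16 ± 0.34 (bta-miR-19b), and none of these had an adjusted p under 0.152.

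In SF, day 7 was compared with day 3 in the same way. No member was called by edgeR or by DESeq2, no member had p under 0.05, and the day 3 and day 7 libraries overlapped for all 10. Over all 337 miRNAs tested, 0.593% were called, 37 had p under 0.05 and 13.9% had libraries without overlap. The members' log2 fold changes ran from -0.33 ± 0.53 (bta-miR-17-3p) to 0.22 ± 0.62 (bta-miR-18a), with a median of 0.03, which was also the median of all miRNAs. The most abundant members had the smallest errors, with 0.14 ± 0.15 for bta-miR-92a, 0.06 ± 0.15 for bta-miR-25 and 0.02 ± 0.17 for bta-miR-93.

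Over the 4 groups, the order of the levels of bta-miR-92a was SF at day 7 (10679 ± 1930, SD, n = 3), SF at day 3 (9807 ± 751), DF at day 3 (5917 ± 335) and DF at day 7 (4438 ± 877). The first pair in this order overlapped, and the later neighbours did not. For bta-miR-25 the order was SF at day 7 (1738 ± 187), SF at day 3 (1683 ± 146), DF at day 3 (1515 ± 163) and DF at day 7 (836 ± 175), and only the last step was free of overlap. bta-miR-93, from the same MCM7 intron, was at 446 ± 17, 445 ± 15, 418 ± 39 and 387 ± 103 in this order, with overlap at each step.

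A change with time in the gap between the follicle classes was tested as the interaction of follicle and day over all 12 libraries. No member was called by edgeR or DESeq2, whereas 26.5% of 378 miRNAs were. At p under 0.05 there were 3 members, beside 124 of all 378 miRNAs. Only 1 member had an adjusted p up to 0.1, which 29.1% of all miRNAs reached. This was bta-miR-25, whose difference between SF and DF was larger at day 7 by 0.90 ± 0.25 on the log2 scale (adjusted p of 0.0135). It reached the fold set for a call without DF at day 3 replicate 1 (1.02) and without DF at day 7 replicate 3 (1.08). For bta-miR-92a, whose SF libraries were the higher at either time, the interaction was 0.54 ± 0.24 with an adjusted p of 0.124. For bta-miR-17-3p it was -1.47 ± 0.65 with an adjusted p of 0.121, and it was called without DF at day 3 replicate 2 (-1.81) and without SF at day 7 replicate 2 (-1.79).

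Members of one cluster were next set against each other within a library, where the scaling of libraries has no part. At day 3, bta-miR-92a made 96.7% ± 0.19 of the miR-17-92 reads in SF (SD, n = 3) and 95.6% ± 0.77 in DF. The values for day 7 were 97.0% ± 0.11 in SF and 94.6% ± 1.13 in DF. Its share was 1.74 percentage points higher in SF, with p = 0.005 in a two-sided exact permutation test within days, the smallest its 400 arrangements can give, and 0.0333 after adjustment over 20 tests of shares. The shares of bta-miR-17-5p (-0.48 percentage points, adjusted p = 0.0333 in this exact test), bta-miR-19a (-0.11, 0.0333) and bta-miR-18a (-0.10, 0.05) were lower in SF. The 7 shares of a cluster sum to a whole, so a higher share of bta-miR-92a lowers the rest together. Once bta-miR-92a was left out of the sum, an alternative chosen after seeing the data, 0 of the shares passed, and that of bta-miR-17-5p was 1.28 percentage points higher in SF (adjusted p = 0.791 in the same exact test). Between day 3 and day 7, 0 of the 10 shares passed.

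The count of 4 shares that passed between SF and DF fell to 0 without SF at day 7 replicate 1, 2 or 3. There the share of bta-miR-92a was 1.75, 1.77 and 1.71 percentage points higher in SF. Its adjusted p was 0.08 to 0.1 in the exact test, which had 200 arrangements. The count fell to 2 without DF at day 7 replicate 1 or 3 or with the counts of both precursors added up. In miR-106b-25, bta-miR-25 made 76.6% ± 2.05 of the day 3 reads in SF and 76.2% ± 0.47 in DF. The day 7 values were 77.4% ± 2.12 and 66.6% ± 1.57. Its share was 5.58 percentage points higher in SF over both days, and that of bta-miR-93 was 5.67 points lower, with adjusted p of 0.113 and 0.1 in the exact permutation test.

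The ratio of bta-miR-25 to bta-miR-93 reads, 2 hairpins of one intron, was 4.20, 3.51 and 3.65 in SF and 3.56, 3.67 and 3.62 in DF at day 3. At day 7 it was 4.14, 3.39 and 4.17 in SF and 2.18, 2.30 and 2.06 in DF. All libraries but those of DF at day 7 lay above 3.39 or at it, and these 3 lay together well below. The ratio of bta-miR-93 to bta-miR-106b reads was also apart in DF at day 7, where it was higher. It was at 10.2, 14 and 9.60 there, and from 5.42 to 8.56 in the other groups. In DF at day 7, bta-miR-106b had 13 to 58 reads. The ratios were not tested and are given as a description.

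The ratio of the arms bta-miR-17-5p and bta-miR-17-3p at day 3 was 15.4, 11 and 8.67 in SF and 11.2, 9.05 and 16 in DF. Its values for day 7 were 29.2, 10.6 and 15 in SF and 5.22, 2.07 and 4.5 in DF. Again DF at day 7 was apart, and below the other 9 libraries. With 4 to 20 reads of bta-miR-17-3p in a library, each single ratio is imprecise. The ratio of bta-miR-92a to bta-miR-17-5p, the last and the first hairpin of miR-17-92, separated the follicle classes on both days instead. At day 3 it ran from 93.9 to 96.6 in SF and from 59.9 to 73.1 in DF. The day 7 libraries ran from 85.6 to 109 in SF and from 49.5 to 80.6 in DF. The ratio of bta-miR-92a to bta-miR-20a overlapped at day 3, at 115 to 154 in SF and 78.7 to 139 in DF. At day 7 this second ratio was apart, at 131 to 167 in SF and 84.6 to 111 in DF.

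**Figure D3:**
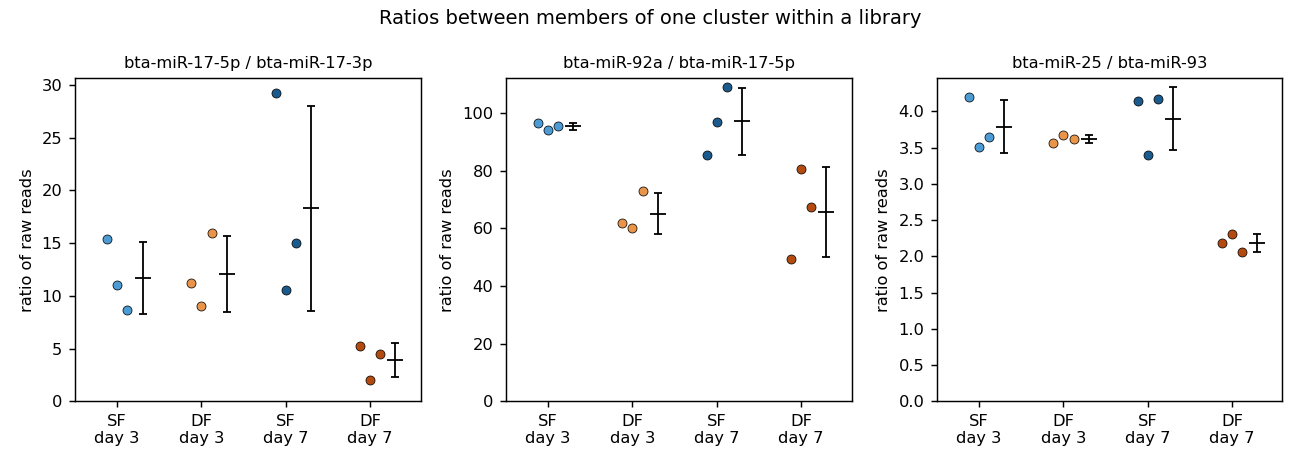
Ratio of raw reads between 2 members of one cluster within each library (y axis, linear, from 0), by group. Each point is 1 library and the bar is the mean ± SD (n = 3). The ratios of bta-miR-17-5p to bta-miR-17-3p and of bta-miR-25 to bta-miR-93 were low in DF at day 7 alone, at 2.07 to 5.22 and 2.06 to 2.30, and that of bta-miR-92a to bta-miR-17-5p was lower in DF than in SF on both days.

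Relatives with the same seeds from outside the clusters were read beside the members, from a list of 6. At day 3, 0 of the 4 relatives with enough reads to be tested were called by edgeR, beside 5.67% of all miRNAs. Of these relatives 1 had p under 0.05, beside 83 of all 335 miRNAs. At day 7, 1 of 5 was called, higher in SF, beside 33.4% of all. Over time in DF, 3 of 5 were called, beside 40.3% of all. These were bta-miR-32 (higher at day 7), bta-miR-92b (lower) and bta-miR-363 (higher, on 5 reads and with overlapping libraries). In SF, 0 of 5 were called, beside 0.593% of all, and 0 had p under 0.05, beside 37 of all 337. In the interaction, 2 of 5 were called, both in the positive direction, beside 26.5% of all. Of these relatives, bta-miR-92b, a near copy of miR-92a from its own locus, and bta-miR-32 had more than 10 reads in every library. bta-miR-92b had normalized counts of 1562, 1074 and 946 in SF and of 1774, 1893 and 1985 in DF at day 3, all SF libraries being the lower. At day 7 it was at 1935, 1172 and 1279 in SF and at 316, 279 and 419 in DF, where all SF libraries were the higher. Its log2 fold change was -0.71 ± 0.15 at day 3 (adjusted p of 0.00170 in edgeR, under the fold set for a call) and 2.19 ± 0.27 at day 7 (adjusted p of 0.000283, called). The fall within DF was 5.64 fold, a log2 fold change of -2.49 ± 0.22 with an adjusted p of 4.89e-07. In SF the change between days was 0.31 ± 0.22 and not called (adjusted p of 0.726). The interaction for bta-miR-92b was 2.77 ± 0.33 with an adjusted p of 7.54e-06.

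bta-miR-32, with the same seed, was high in DF at day 7, where bta-miR-92b was low. Its counts were 11.6, 16.2 and 13.4 in SF and 21.8, 15.3 and 12.7 in DF at day 3, where the groups overlapped. At day 7 they were 13.4, 25.3 and 18.5 in SF and 42.8, 28.3 and 48.6 in DF, with all DF libraries the higher. In DF it rose 2.37 fold from day 3 to day 7, a log2 fold change of 1.25 ± 0.35 with an adjusted p of 0.0105. Against SF at day 7 its log2 fold change of -0.998 ± 0.363 (adjusted p of 0.0596) missed the call by its size. It passed with TMM factors (-1.07) and 5 other choices of fit, among them the replicate block (-1.02). Of the 6 fits without a single library, 2 gave the call. In the rest the log2 fold change was -0.78 to -0.97, with an adjusted p of 0.145 to 0.191 in edgeR.

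Within a library, bta-miR-92a exceeded bta-miR-92b at day 3 by 8.49 ± 1.5 fold in SF (SD, n = 3) and by 3.15 ± 0.24 fold in DF. The excess at day 7 was 7.81 ± 2.83 fold in SF and 13.2 ± 0.68 fold in DF. DF was thus the group with the lowest ratios at day 3 and the highest at day 7. Summed over miR-92a, miR-25, miR-92b, miR-32 and miR-363, the normalized count was 12698 ± 1164 and 9332 ± 514 in SF and DF at day 3, and 13900 ± 1673 and 5655 ± 1127 at day 7. The corresponding sum over the miR-17 family with miR-106a and miR-20b came to 697 ± 21 in SF and 636 ± 61 in DF for day 3, then 693 ± 12 and 546 ± 147 for day 7. The DF libraries of day 7 reached from 413 to 703 in the latter, and so overlapped with SF.

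**Figure D4:**
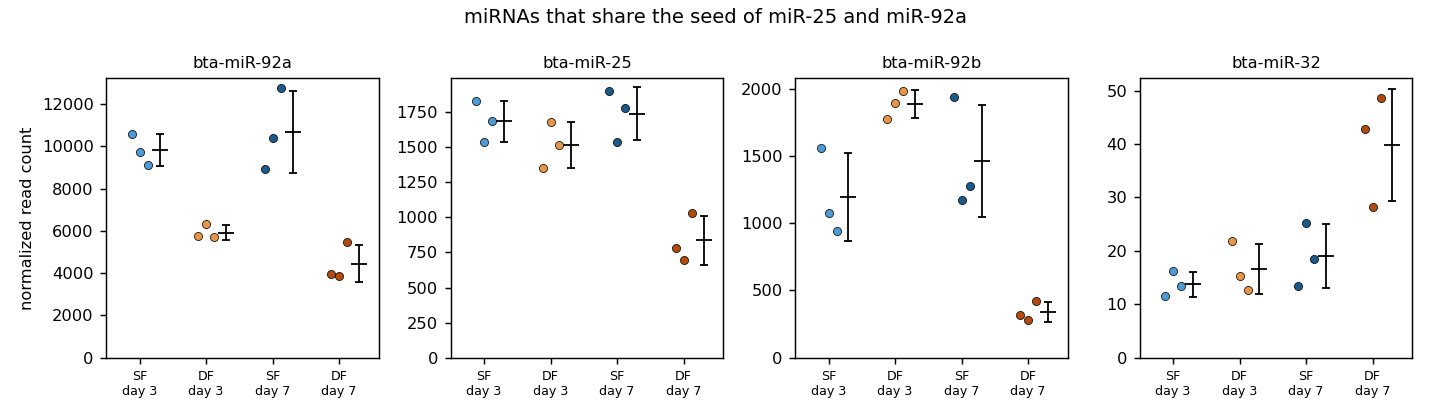
Normalized read count (y axis, linear, from 0) of 4 miRNAs with the seed of miR-25 and miR-92a, by group. Each point is 1 library and the bar is the mean ± SD (n = 3). In DF at day 7, bta-miR-92a, bta-miR-25 and bta-miR-92b were at their lowest means and bta-miR-32 was at its highest (39.9 ± 10.5).

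Of the further set of precursors, the names listed under no other locus had few reads. bta-miR-18b had 0 reads in all 12 libraries, which allows a share of up to 0.000741% in the deepest and 0.00187% in the shallowest. bta-miR-106a had 0 to 5 reads in a library and bta-miR-20b had 1 to 8. bta-miR-363 had 0 reads in each day 3 library and 1, 2 and 0 reads in SF and 1, 4 and 0 in DF at day 7, which is at the limit of the depth. Its call between the days in DF rests on these 5 reads, and 1 of 3 libraries of DF at day 7 had none. For bta-miR-20b, the interaction was 2.32 ± 0.90 with an adjusted p of 0.0742 in edgeR and of 0.152 in DESeq2, on means of 1.86 and 4.0 in SF and DF at day 3 and of 5.14 and 2.01 at day 7.

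The miRNAs whose pattern over the 12 libraries was most like each cluster were sought among 128 other miRNAs with a mean of at least 50 reads, by Pearson's r with the mean centred log2 profile of the members with a mean of at least 10 reads. For miR-106b-25 these were bta-miR-125a (r = 0.96), bta-miR-195 (0.92), bta-miR-128 (0.91), bta-miR-192 (0.91) and bta-miR-31 (0.90). All 5 had their lowest mean in DF at day 7, as bta-miR-195 with 266 ± 96 there and 797 ± 134 to 812 ± 44 in the other groups. For miR-17-92 the values were lower, with bta-miR-127 (0.77), bta-miR-125a (0.69), bta-let-7g (0.67), bta-miR-532 (0.63) and bta-let-7c (0.62). bta-miR-127 was at 185 ± 12 and 107 ± 21 in SF and DF at day 3, and at 156 ± 19 and 94.6 ± 47.9 at day 7. These miRNAs were chosen for their likeness to a cluster, so a low group shared with it is no separate result. The values are descriptions over libraries that share their groups and scaling.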

How the data were processed

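After trimming by cutadapt, the authors mapped the reads to the UMD 3.1 assembly, matched them to the known miRNAs of miRBase with miRDeep2 and deposited raw read counts for each pair of mature miRNA and precursor, with no normalization. Groups and replicate numbers came from the labels. For each name the precursor entry with the highest total was kept. The 4 comparisons and the interaction were run on these counts in R 4.3.3 with edgeR 4.0.16 (quasi-likelihood F test, median-of-ratios factors, prior count of 0.125) over every miRNA with 1 or more reads in 2 libraries of either group, and adjusted over all of them by the Benjamini-Hochberg method. Standard errors are the log2 fold change divided by the root of F, an approximation. Shares were compared by exact permutation of the follicle labels within days, or of the days within follicle classes. The members, the relatives and the marker lists were chosen with earlier results of these data known. Named were all members, the 6 relatives and, for each cluster, the 5 most similar other miRNAs. Alternatives were DESeq2 1.42.0, TMM factors, library size alone, other filters, all 12 samples in one fit, summed precursor entries, a prior count of 2, a false discovery threshold of 5%, a replicate block and leaving out each library. The replicate numbers of SF and DF at day 7 deviated together weakly (correlations of 0.13, 0.16 and 0.18), and those at day 3 did not (-0.14, -0.09 and -0.03). Between days, where no heifer was shared, DF at day 7 replicate 1 and DF at day 3 replicate 2 also reached 0.13. The labels tie no number to an animal. The fitting procedure was tested on simulated data. The differences set there were larger than those of any member. The simulated replicates varied less than the real ones, except for SF against DF at day 3. Recovery of differences as small as those of the members was not tested. With 3 replicates, the edgeR p-values set a difference between groups against the spread between these samples. Those of the exact test rank a difference among all arrangements of the labels.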

Additional observations from a re-analysis of the deposited data

Results flagged for a closer look

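Among the 10 members and the 5 relatives tested, the interaction of follicle and day had an adjusted p up to 0.1 for 3 miRNAs. For these the gap between the follicle classes differed between the days, in edgeR over all 12 libraries. That adjusted p was reached by 29.1% of all 378 miRNAs tested. For bta-miR-25 the difference grew by 0.90 on the log2 scale (adjusted p of 0.0135), under the fold set for a call. For bta-miR-92b it went from lower to higher in SF, a change of 2.77 (adjusted p of 7.54e-06), which was called in all 21 alternatives. Its difference at day 3 alone was called in 0 of 16 alternatives. With all 12 samples in one fit that difference was -0.66, with an adjusted p of 0.177 in edgeR. For bta-miR-20b the change was 2.32 (adjusted p of 0.0742), on 1 to 8 reads in a library, and it was called in 11 of 20 alternatives.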

How the results depend on the processing

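The calls of bta-miR-92a and bta-miR-25 at day 7 kept their direction in all 16 alternatives, and bta-miR-92a was called in 16 and bta-miR-25 in 15 of them. The members called were 2 or 3 at day 7, and 0 in every alternative at day 3 and between days in SF. In DF the 1 call, bta-miR-17-3p, was lost (0 members) with DESeq2, a prior count of 2 or a false discovery rate of 5%, and was replaced by that of bta-miR-25 with library size alone. Leaving out libraries gave 0 to 2 members in DF and 0 to 1 in the interaction, and a filter of at least 10 reads in at least 3 samples gave 1 there, bta-miR-17-3p (-1.45). At a false discovery rate of 5%, bta-miR-17-3p was not called at day 7 either. The cause of these changes was not tested.

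Over the whole table, the 19 calls at day 3 became 11 with DESeq2, 12 with the filter of 10 reads, 8 with all 12 samples in one fit and 10 to 21 without single libraries. The 145 in DF became 92 with that filter. The 2 in SF became 5 with DESeq2, 12 with no filter, 0 with the filter of 10 reads, 1 with all 12 samples in one fit and 0 to 20 without single libraries.

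With the replicate block, 7 miRNAs were called between days in SF, 0 shares passed between SF and DF, and the log2 fold changes between days in DF of bta-miR-18a and bta-miR-19a turned to -0.0037 and -0.017. For the shares, the 64 arrangements under the block allow no p below 0.0312, and 4 shares were at it, with an adjusted p of 0.156, so this count says nothing about their stability. The block changed no fold change call of a member, and that of bta-miR-20b was lost and that of bta-miR-32 at day 7 gained (-1.02).

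Differences close to 0, none of them called, changed sign. With library size alone these were bta-miR-17-3p (-0.017) and bta-miR-93 (-0.023) at day 3, bta-miR-18a (-0.072) and bta-miR-19a (-0.12) in DF, bta-miR-17-5p (-0.044), bta-miR-19a (-0.11), bta-miR-92a (-0.019), bta-miR-93 (-0.12) and bta-miR-25 (-0.081) in SF, and bta-miR-19a (0.0077) in the interaction. With TMM factors, bta-miR-19a was at -0.0025 in DF and at 0.019 in the interaction. Without single libraries, the ranges at day 3 were -0.19 to 0.36 (bta-miR-17-3p), -0.014 to 0.39 (bta-miR-20a) and -0.016 to 0.092 (bta-miR-93), and that of bta-miR-19b at day 7 was -0.012 to 0.64. In DF they were -0.22 to 0.37 (bta-miR-18a), -0.35 to 0.25 (bta-miR-19a), -0.17 to 0.47 (bta-miR-19b) and -0.35 to 0.0097 (bta-miR-93). In SF they were -0.22 to 0.58 (bta-miR-18a), -0.11 to 0.14 (bta-miR-19a), -0.32 to 0.097 (bta-miR-20a), -0.28 to 0.010 (bta-miR-19b), -0.027 to 0.071 (bta-miR-93) and -0.023 to 0.11 (bta-miR-25). In the interaction they were -0.33 to 0.50 (bta-miR-18a), -0.21 to 0.36 (bta-miR-19a) and -0.63 to 0.0012 (bta-miR-19b).

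The shares that passed between SF and DF were 4, but 2 with summed precursor entries, 0 without bta-miR-92a, 0 without bta-miR-19b and bta-miR-92a, and 0 to 6 without single libraries. Without bta-miR-92a, the differences in percentage points turned to 1.28 (bta-miR-17-5p), 1.26 (bta-miR-20a) and 2.52 (bta-miR-19b), and without bta-miR-19b as well to 3.83 (bta-miR-17-5p) and 3.22 (bta-miR-20a). Between days, the share of bta-miR-17-5p turned to -0.0032 with summed entries, -1.50 without bta-miR-92a and -1.64 without bta-miR-19b and bta-miR-92a. Single libraries moved the shares of bta-miR-106b (-0.11 to 0.26), and between days those of bta-miR-17-5p (-0.095 to 0.080) and bta-miR-18a (-0.0027 to 0.047). Low reads limit bta-miR-17-3p and bta-miR-18a.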
